A study of Mus musculus with 8 samples.

Results

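The genes described here are 10 smooth muscle and serum response factor (SRF) target genes, Tagln, Tagln2, Cnn1, Cnn2, Myl9, Mylk, Myh11, Lmod1, Smtn and Srf, taken by symbol from 42391 gene entries of the raw counts. RNA was sequenced from C2C12 cells, an immortalized mouse myoblast line, and from primary myoblasts that had grown out of minced hindlimb muscle of 5-week-old mice. Both were labelled WT in the control groups and received either non-targeting siRNA or Septin9 siRNA, with 2 replicates per group and 8 samples in all. C2C12 cells received 50 nM siRNA and were collected 60 h after transfection, the last 12 h in differentiation medium, whereas primary myoblasts were collected 48 h after transfection in proliferation medium. Cell line, medium and time therefore differ together between the cell types and cannot be told apart, and C2C12 is a single line. The paper states 2 independent experiments, but neither it nor the labels say whether the replicates of primary myoblasts came from different mice. Direction of change was compared within each replicate pair, in which the Septin9 siRNA and control samples carry the same replicate number. The group was selected on the log2 ratios of Septin9 siRNA to control of Lmod1, which have opposite signs in the cell types, so the siRNA effect on Lmod1 is given as a description without a test. The other members were chosen alongside it with earlier results of these data known.

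SRF is a transcription factor that binds the CArG box, a short sequence of CC, a run of A or T bases and GG. In smooth muscle it is driven mainly by myocardin and the myocardin-related transcription factors (MRTFs), which are released into the nucleus when monomeric actin is used up by filament assembly, and by ternary complex factors (TCFs) at immediate early genes. Its targets encode contractile and actin-binding proteins. Several of these are also transcribed in myoblasts, where they belong to the general actin cytoskeleton.

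Septin9 itself was lowered in every Septin9 siRNA sample. In C2C12 cells it stood at 430 and 441 CPM (read counts relative to library size, scaled within the cell type by TMM) in the control samples of replicates 1 and 2, and at 151 and 189 CPM after Septin9 siRNA, 39.1% of control. Primary myoblasts went from 365 and 459 CPM to 199 and 157 CPM, 43.2% of control. Between 20898611 and 27223414 reads were counted per sample. Of the smooth muscle markers listed, Myh11, Kcnmb1, Ppp1r14a and Myocd, which encodes myocardin, stayed under 1 CPM in all 8 samples, and the sum over the 6 markers was set by Actg2 and Synpo2. Marker values in CPM are given in this paragraph with all 8 samples scaled together. The smooth muscle sum was 210 to 222 CPM in control and 155 CPM in both Septin9-deficient C2C12 samples. In primary myoblasts it was 48.7 to 120 CPM in control and 85.2 to 145 CPM in Septin9-deficient samples. The 6 myoblast markers summed to 1052 to 1475 CPM in control C2C12 cells and 2906 to 3955 CPM in control primary myoblasts. They summed to 1432 to 1751 CPM and 3768 to 4644 CPM in the Septin9-deficient cells. Pericyte markers summed to 405 to 584 CPM and 409 to 536 CPM in control and Septin9-deficient C2C12 cells, and to 200 to 264 CPM and 167 to 293 CPM in primary myoblasts. For fibroblast markers these ranges were 2405 to 3113 CPM and 2771 to 3016 CPM, then 360 to 856 CPM and 329 to 1027 CPM. Endothelial markers reached at most 4.10 CPM and immune markers at most 2.75 CPM. The smooth muscle sum was thus lower after Septin9 siRNA in both C2C12 pairs, and it was higher in both primary myoblast pairs, from 120 to 145 CPM in replicate 1 and from 48.7 to 85.2 CPM in replicate 2. The latter was set by Synpo2, an actin-binding protein, which rose by 0.59 on the log2 scale (adjusted p = 0.0153, edgeR). Actg2 went the other way in both primary myoblast pairs, with a log2 fold change of -0.647 that did not pass (adjusted p = 0.361, edgeR). The median log2 fold change over the 3 smooth muscle markers tested in primary myoblasts was -0.0345, so the higher sum was not shared by these markers as a set. The myoblast sum was higher in each pair of both cell types, and its largest single contributor in the Septin9-deficient samples was Des, which encodes desmin. Among the 6 myoblast markers 3 rose and 0 fell in C2C12 cells, compared with 2.64% and 4.12% of all genes. In primary myoblasts Des rose by 0.57 while Myf5 and Pax7, transcription factors of muscle progenitors, fell by 0.78 and 0.44. Over all genes 3.95% rose and 1.04% fell there. Marker genes named here were chosen after their values were seen, and the part of these markers in the results was not tested. In bulk RNA, fewer cells of a type and less RNA per cell cannot be told apart.

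**Figure D1:**
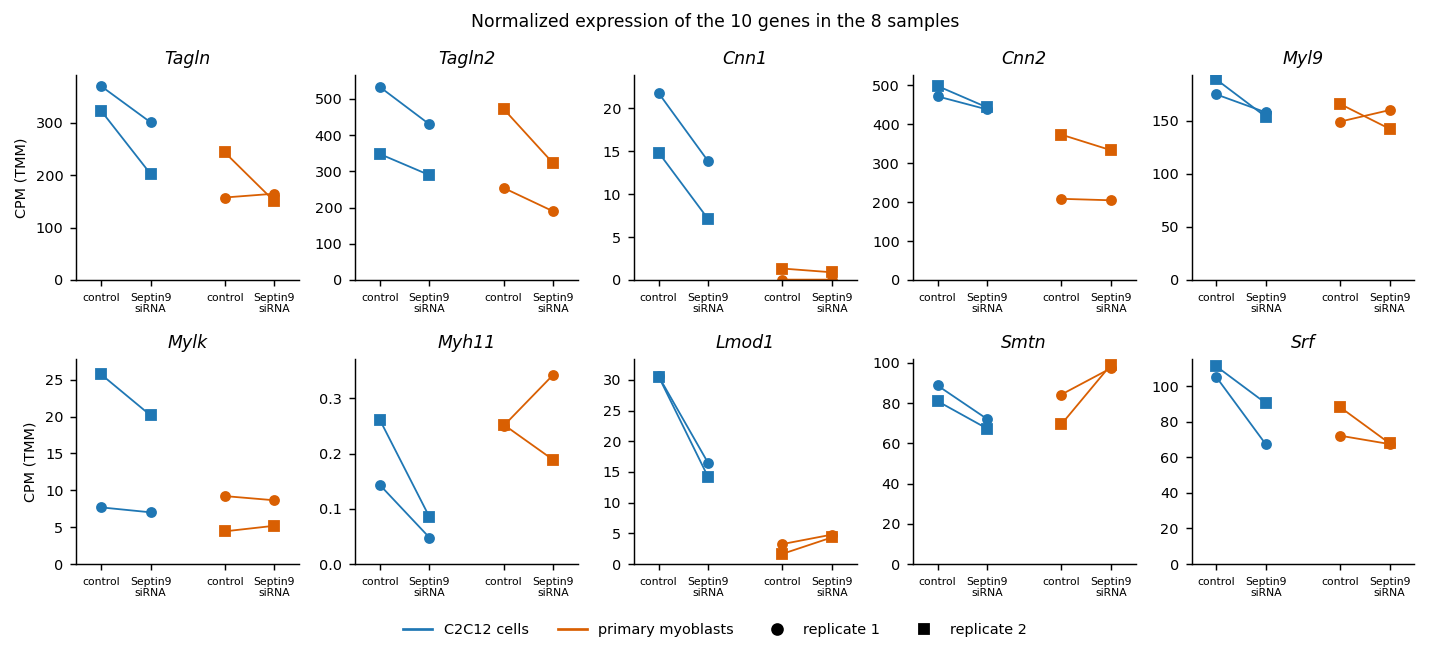
CPM of each gene in the 8 samples, scaled within each cell type, with a line joining the control and Septin9 siRNA sample of a replicate (circles replicate 1, squares replicate 2; C2C12 cells blue, primary myoblasts orange). All lines slope down in C2C12 cells, and both lines of Lmod1 and of Smtn slope up in primary myoblasts.

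Lmod1 (leiomodin 1, chr1:135324807-135368065 of GRCm38, plus strand) nucleates actin filaments in smooth muscle. In C2C12 cells it was counted at 30.57 and 30.53 CPM in the control samples and at 16.4 and 14.2 CPM after Septin9 siRNA, from 640 and 818 reads to 342 and 331 reads. Both Septin9-deficient samples lay below both control samples, with log2 ratios of -0.89 and -1.10 in replicate pairs 1 and 2 and a fitted log2 fold change of -1.003 (SE 0.09), 50.1% of control. In primary myoblasts it was at 3.25 and 1.66 CPM in the control samples and at 4.80 and 4.34 CPM after Septin9 siRNA, from 78 and 46 reads to 112 and 92 reads. Both Septin9-deficient samples lay above both control samples there, with pair ratios of 0.55 and 1.34 and a fitted log2 fold change of 0.94 ± 0.25 (SE), 186% of control. The difference of the log2 fold changes, primary myoblasts minus C2C12 cells, was 1.92 ± 0.25 (SE). No test is given for these values, since they chose the gene.

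With all 8 samples scaled together, Lmod1 was at 29.6 ± 0.679 CPM (SD, n = 2) in control C2C12 cells and at 2.53 ± 1.16 CPM in control primary myoblasts. The log2 difference was 3.55 ± 0.32 (SE). It is given without a test too, since the control samples enter the ratios on which Lmod1 was selected. After Septin9 siRNA, Lmod1 in C2C12 cells was still above that in every primary myoblast sample.

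Smtn (smoothelin, chr11:3517523-3540612, minus strand), an actin-binding protein of contractile smooth muscle, was the other member that went down in both C2C12 pairs and up in both primary myoblast pairs. In C2C12 cells it went from 88.8 and 81.0 CPM to 72.1 and 67.4 CPM, with pair ratios of -0.30 and -0.27. Both Septin9-deficient samples lay below both control samples, and Smtn fell by 0.28 on the log2 scale (SE 0.07, adjusted p = 0.0157 over 15814 genes, edgeR). That adjusted p was 0.262 with DESeq2. In primary myoblasts Smtn went from 84.3 and 69.5 CPM to 97.37 and 99.01 CPM, with pair ratios of 0.21 and 0.51. Both Septin9-deficient samples lay above both control samples, and the log2 fold change of 0.36 (SE 0.11, 95% interval 0.12 to 0.60) did not pass, with an adjusted p of 0.0783 over 17117 genes (edgeR).

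The difference of the Smtn effect between the cell types was 0.63 on the log2 scale (SE 0.12, 95% interval 0.36 to 0.91). It did not pass the adjustment over 17918 genes (adjusted p = 0.267, edgeR interaction), and the adjusted p was 0.089 with DESeq2. With this test, 0 of 17918 genes passed with edgeR, 0% of those tested, whereas 1469 genes, 8.2%, had an unadjusted p under 0.05, and DESeq2 passed 21, 0.117%. Among the 8 members tested other than Lmod1, 0 passed with either tool, and Smtn was the 1 with an unadjusted p under 0.05. Without replicate 1 of primary myoblasts the adjusted p was 7.06e-06 with a difference of 0.78, and without replicate 2 it was 0.0157 with a difference of 0.52, each with its lone pair taken to vary like the other samples. Without replicate 1 or replicate 2 of C2C12 cells it did not pass, with adjusted p-values of 0.257 and 0.256 (edgeR). The other 7 members differed by -0.21 to 0.31, and their 95% intervals included 0. Of the 15073 genes tested in both cell types, 6.16% went down in both C2C12 pairs and up in both primary myoblast pairs.

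**Figure D2:**
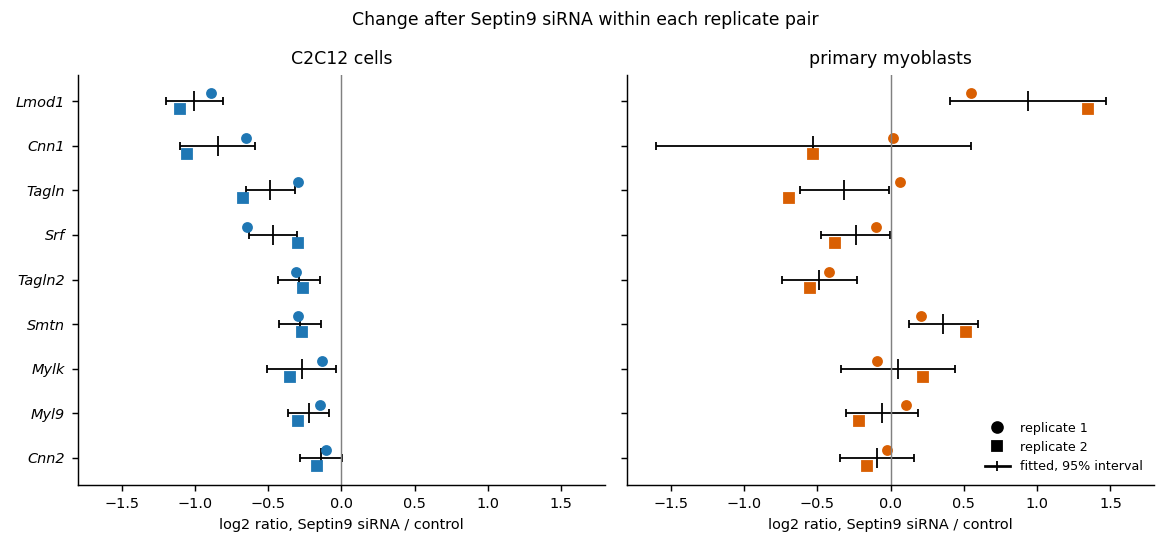
Log2 ratio of Septin9 siRNA to control in each replicate pair (circles replicate 1, squares replicate 2), with the fitted log2 fold change and its 95% interval in black, for the 9 genes that passed the filter on low counts. All 18 C2C12 points lie left of 0, whereas in primary myoblasts both points lie right of 0 for Lmod1 and Smtn, and left of 0 for Srf, Tagln2 and Cnn2.

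Srf (chr17:46548329-46556175, minus strand) encodes the factor itself. In C2C12 cells it went from 105 and 111 CPM to 67.2 and 90.4 CPM, with both Septin9-deficient samples below both control samples. It fell by 0.47 on the log2 scale (SE 0.08, adjusted p = 0.000976, edgeR), but without replicate 1 the log2 value was -0.31 and did not pass. The primary myoblasts went from 72.1 and 88.2 CPM to 67.4 and 67.8 CPM. Here too the groups did not overlap, and the log2 fold change was -0.24 (95% interval -0.47 to -0.0044, adjusted p = 0.286, edgeR).

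Promoter windows of RefSeq on GRCm38.p6, 250 bases before to 50 after the start, were listed for 8 of the 10 members, the exceptions being Tagln and Myh11. A CArG box (CC, 6 bases that are each A or T, and GG, which reads as a CArG box on either strand) was found in those of Srf, Cnn2 and Myl9, and in 1.63% of 32851 windows in all. A sequence that misses it by 1 base stood in the windows of Lmod1, Srf and Myl9, and in 19.9% of all windows. The following 180 bases, from 200 to 21 before the start, are shown because they hold these sequences, in capitals.
Srf, chr17:46556183-46556362, minus strand: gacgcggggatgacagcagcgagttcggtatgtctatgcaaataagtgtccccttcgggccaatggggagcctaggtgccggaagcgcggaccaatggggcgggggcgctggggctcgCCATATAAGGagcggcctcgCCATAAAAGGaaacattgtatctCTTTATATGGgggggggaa
Cnn2, chr10:79988400-79988579, plus strand: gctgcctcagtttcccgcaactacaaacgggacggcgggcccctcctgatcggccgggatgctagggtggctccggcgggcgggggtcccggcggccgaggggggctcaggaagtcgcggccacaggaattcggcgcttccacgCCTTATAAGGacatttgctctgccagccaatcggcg
Myl9, chr2:156775264-156775443, plus strand: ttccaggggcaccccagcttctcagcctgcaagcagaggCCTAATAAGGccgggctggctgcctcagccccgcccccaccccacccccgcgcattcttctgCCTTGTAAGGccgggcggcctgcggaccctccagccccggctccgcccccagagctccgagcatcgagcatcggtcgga
Lmod1, chr1:135324613-135324792, plus strand: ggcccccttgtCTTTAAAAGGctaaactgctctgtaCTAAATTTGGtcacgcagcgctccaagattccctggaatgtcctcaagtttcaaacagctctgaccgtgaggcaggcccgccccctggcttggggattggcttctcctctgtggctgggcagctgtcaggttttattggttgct
Srf has CArG boxes 82 to 73 and 62 to 53 bases before the start and a sequence 1 base short of it at 39 to 30. Cnn2 has a CArG box at 56 to 47, and Myl9 has 1 at 161 to 152 and a sequence 1 base short at 99 to 90. Lmod1 has 2 sequences that are 1 base short, at 189 to 180 and 164 to 155, and no full CArG box. The windows of Tagln2, Cnn1, Mylk and Smtn hold neither, which says only that these letters are not in this window.

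**Figure D3:**
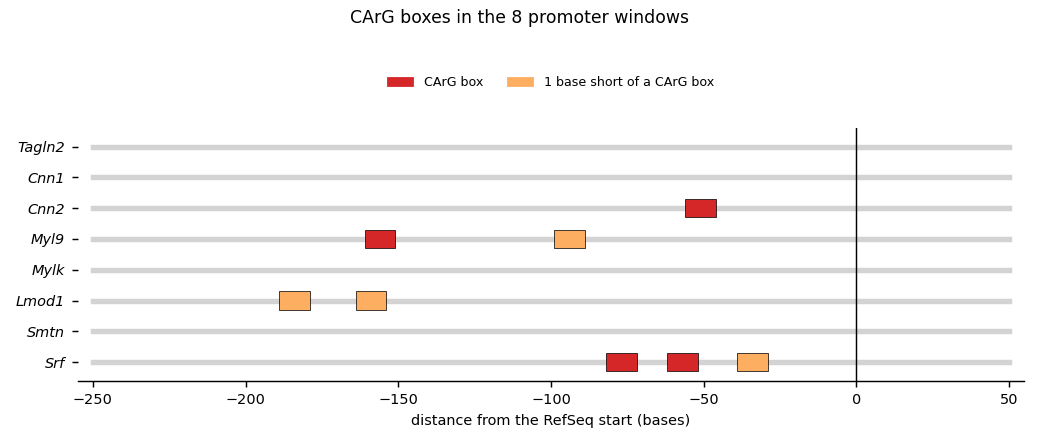
Positions of CArG boxes (red) and of sequences 1 base short of one (orange) relative to the RefSeq start, for the 8 members with a promoter window of 300 bases (grey). Full boxes are seen in Srf, Cnn2 and Myl9, and those of Srf and Cnn2 lie within 100 bases of the start.

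The calponin-related members encode actin-binding proteins. Cnn1 (calponin 1, chr9:22099216-22109630, plus strand), which is typical of differentiated smooth muscle, had the largest fold change in C2C12 cells after Lmod1. It went from 21.8 and 14.9 CPM to 13.8 and 7.10 CPM, both Septin9-deficient samples below both controls, and fell by 0.84 on the log2 scale (SE 0.12, adjusted p = 0.000222, edgeR), 57.2% of control. Without replicate 2 the log2 value was -0.63 and the adjusted p 0.327. In primary myoblasts Cnn1 was low, with 1 and 37 reads in control and 1 and 19 reads in Septin9-deficient samples, and a log2 fold change of -0.53 with a 95% interval of -1.60 to 0.55.

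Cnn2 (calponin 2, chr10:79988584-79996062, plus strand), found in many cell types, was at 471 and 498 CPM in the C2C12 control samples and at 437.5 and 443 CPM after Septin9 siRNA. The samples did not overlap, but the change was small, with a log2 fold change of -0.14 (95% interval -0.28 to 0.01, adjusted p = 0.302, edgeR). In the primary myoblasts, control samples had 208 and 373 CPM, Septin9-deficient samples 204 and 333 CPM, and the replicates differed by more than the siRNAs.

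Tagln (transgelin or SM22, chr9:45929619-45936058, minus strand), an early smooth muscle marker, went from 369.9 and 323.0 CPM to 300.8 and 202.4 CPM in C2C12 cells. It fell by 0.49 on the log2 scale (SE 0.08, adjusted p = 0.000742, edgeR), with no overlap between the groups. Without replicate 2 the log2 value was -0.27 (adjusted p = 0.914, edgeR), and without replicate 1 it was -0.69. In primary myoblasts the pairs disagreed, from 157 and 243 CPM to 165 and 150 CPM, ratios of 0.06 and -0.70. The neighbouring gene Pcsk7, a proprotein convertase on the opposite strand, was chosen after its values were seen because its exons share 108 bases with those of Tagln in GENCODE release M21, 5.43% of the latter, and its RefSeq span runs over 2480 bases of Tagln. Whether the counting used strand is not given in the sources used here, so reads of both genes cannot be told apart there. Pcsk7 moved with Tagln, from 411 and 369 CPM to 342 and 243 CPM in C2C12 cells, and fell by 0.43 on the log2 scale (adjusted p = 0.00156, edgeR). In primary myoblasts the Pcsk7 pair ratios were 0.02 and -0.60.

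Tagln2 (transgelin 2, chr1:172500047-172507380, plus strand), the more widely expressed relative, went down in all 4 pairs. It went from 533 and 348 CPM to 430 and 290 CPM in C2C12 cells and fell by 0.29 on the log2 scale (SE 0.07, adjusted p = 0.0138, edgeR). In primary myoblasts it went from 254 and 472 CPM to 190 and 322 CPM and fell by 0.49 (SE 0.12, adjusted p = 0.0253, edgeR). With Lmod1 left out as not tested, Tagln2 was the 1 member with an adjusted p under 0.05 there. The control and Septin9-deficient samples overlapped in both cell types, and the replicates differed by more than the siRNAs.

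The members of the myosin system regulate contraction through the regulatory light chain. Myl9 (chr2:156775420-156781658, plus strand), which encodes that light chain, went from 175 and 189 CPM to 158 and 154 CPM in C2C12 cells, with a log2 fold change of -0.22 (95% interval -0.36 to -0.08, adjusted p = 0.0545, edgeR). In primary myoblasts it went from 149 and 166 CPM to 160 and 142 CPM, and the pairs had opposite signs. Mylk (chr16:34745210-35002420, plus strand), the kinase that phosphorylates it, went from 7.69 and 25.7 CPM to 7.02 and 20.2 CPM in C2C12 cells, a log2 fold change of -0.27 (95% interval -0.51 to -0.03, adjusted p = 0.192, edgeR). In primary myoblasts it was at 9.22 and 4.44 CPM in control and 8.65 and 5.19 CPM after Septin9 siRNA. Myh11 (chr16:14194535-14291372, minus strand), the smooth muscle myosin heavy chain, did not pass the filter on low counts in either cell type, with 3 and 7 reads against 1 and 2 in C2C12 cells and 6 and 7 against 8 and 4 in primary myoblasts. Its change was not detectable at this depth.

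In C2C12 cells 8 of 8 tested members other than Lmod1 were lower in both replicate pairs, compared with 31.4% of all genes tested, and 0 were higher in both, compared with 31%. The Septin9-deficient samples lay below both control samples in 6 of 8, compared with 12.7%, and above them in 0 of 8, compared with 13.1%. Without the replicate block 0 of 8 had an adjusted p under 0.05 by edgeR, and 0 of all genes were called. With the block, 5 of 8 had an adjusted p under 0.05 and a lower value, compared with 4.12%. That count was 4 with DESeq2, 1 in a fit of all 8 samples, 2 without replicate 1 and 1 without replicate 2. Only Cnn1 also reached the 1.5-fold change set for a call, as did 0.74% of all genes in this direction and 1.57% in either. The median log2 fold change was -0.28, beside -0.001 over all genes. In primary myoblasts 3 of 8, Tagln2, Cnn2 and Srf, were lower in both pairs (29.2% of all genes), 1 of 8, Smtn, was higher in both (32.6%), and 4 of 8 had pairs of opposite sign (38.2%). Of these, 1 member lay below both controls (14.8%) and 1 above (13.4%), and 1 had an adjusted p under 0.05 and a lower value (1.04%). With edgeR 0 of 8 were called, compared with 0.298% of all genes called lower, 2.87% called higher and 3.17% in either direction. With DESeq2 it was also 0 of 8, while 4 of 8 had an unadjusted p under 0.05 with edgeR. The median was -0.17, beside 0.010 over all genes. Across both cell types, Tagln2, Cnn2 and Srf were lower in all 4 pairs, as were 13.6% of the genes tested in both.

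The replicates were compared through the block term of the same fits. In C2C12 cells 3 of the 8 tested members other than Lmod1 were called between replicates, replicate 2 against replicate 1. They were Mylk by 1.64 on the log2 scale, Cnn1 by -0.73 and Tagln2 by -0.59. Of all genes 11.3% were called, 5.2% higher and 6.1% lower in replicate 2. In primary myoblasts 4 of these 8 were called, Cnn1 by 4.56, Tagln2 by 0.83, Cnn2 by 0.77 and Mylk by -0.90, compared with 15.9%, 8.05% higher and 7.81% lower. In primary myoblasts, fibroblast markers moved with this difference, marker values being given with all 8 samples scaled together. Their sum was 360 and 329 CPM in the control and Septin9-deficient samples of replicate 1 and 856 and 1027 CPM in those of replicate 2. Col1a1, a collagen chosen after its values were seen, was at 6.83 and 4.84 CPM in replicate 1 and at 249 and 378 CPM in replicate 2. Pericyte markers of primary myoblasts summed to 200 and 167 CPM in replicate 1 and to 264 and 293 CPM in replicate 2. They did not move as a set. Rgs5, Cspg4 and Pdgfrb were higher in replicate 2, while Abcc9 went from 44.0 and 50.3 CPM to 8.85 and 33.2 CPM. Notch3 went from 123 and 85.8 CPM to 120 and 104 CPM. These markers too were named after their values were seen. The 5 striated muscle SRF targets, taken up here after their values were seen, went the other way between primary myoblast controls 1 and 2. Acta1 was at 3347 and 893 CPM, Actc1 at 2113 and 613, Ckm at 86.6 and 21.3, Tnnc1 at 846 and 284 and Des at 1768 and 1252 CPM. The part of these markers and targets in the replicate difference was not tested. For the members called between replicates, the replicate difference was larger than the siRNA effect, except for Cnn1 in C2C12 cells. Lmod1 differed between replicates by -0.09 in C2C12 cells and by -0.51 in primary myoblasts. This is given without a test, since the same samples enter the ratios on which Lmod1 was selected.

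**Figure D4:**
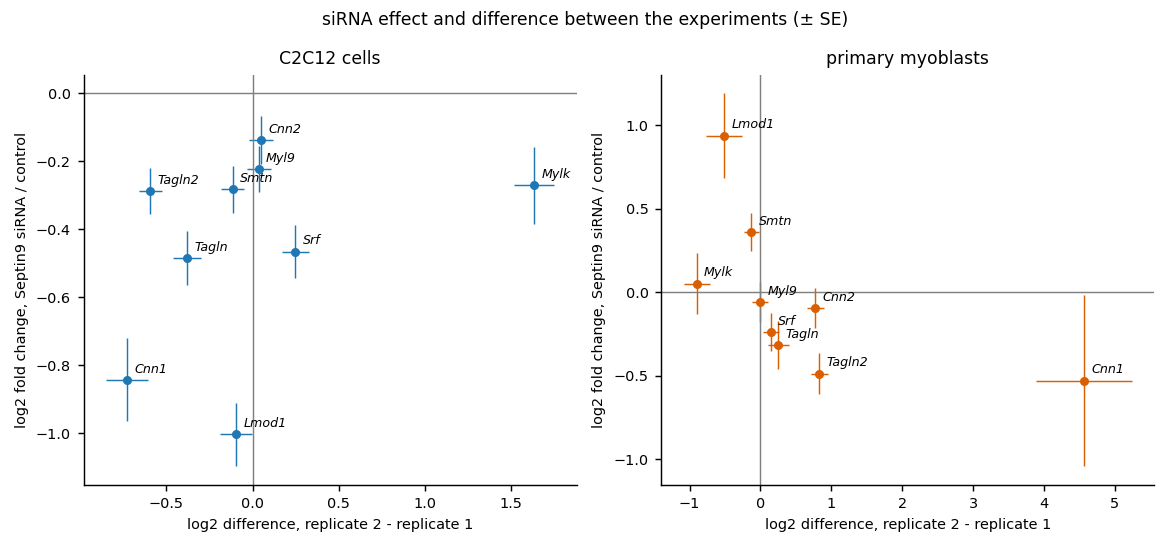
Fitted log2 fold change after Septin9 siRNA (vertical) against the log2 difference of replicate 2 and replicate 1 (horizontal), with SE bars, for the 9 members that passed the filter on low counts in each cell type. In C2C12 cells Mylk lies far to the right at 1.64 and Lmod1 near 0, and in primary myoblasts Cnn1 lies at 4.56.

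Among the control samples, the levels of the members per transcript length (RPKM, over the union of exons in GENCODE release M21) were highest for the same 4 genes in both cell types. They were 204 and 180 for Tagln2, 191 and 122 for Cnn2, 169 and 104 for Tagln, and 152 and 140 for Myl9, each in C2C12 cells and primary myoblasts. Srf was at 36.2 and 28.5 and Smtn at 18.8 and 18.1. Lmod1 was at 7.50 and 0.641, Cnn1 at 6.47 and 0.259, Mylk at 1.45 and 0.625, and Myh11 at 0.026 and 0.034. Tagln2 and Cnn2 in C2C12 cells did not differ beyond their spread, with SDs of 56.0 and 12.0 RPKM, whereas Cnn2 and Tagln there differed by more than either SD (12.0 and 12.1 RPKM), as did Tagln and Myl9. In primary myoblasts, with SDs of 76.3, 48.8 and 31.6 RPKM for Tagln2, Cnn2 and Tagln, each gap between neighbours among the 4 was smaller than the larger SD of the pair. Between the control groups 1 of the 8 tested members other than Lmod1 was called, Cnn1, which was at 17.7 ± 4.32 CPM in C2C12 cells and 0.709 ± 0.942 CPM in primary myoblasts (SD, n = 2, log2 difference 4.59, SE 1.2, adjusted p = 0.0230, edgeR). Over all genes 18% were called higher in C2C12 cells, while 19.6% were lower there and 37.6% were called in either direction. Tagln was higher by 0.70 (adjusted p = 0.0703, edgeR), and the 6 others had adjusted p-values between 0.137 and 0.757.

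Other genes of the pathway were taken from lists that were chosen with earlier results of these data known. Of 22 cytoskeletal MRTF-SRF targets in C2C12 cells, 10 had an adjusted p under 0.05 and a lower value and 0 a higher one. Over all genes these shares were 4.12% and 2.64%. In both pairs 21 were lower and 0 higher, compared with 31.4% and 31% of all genes. The median log2 fold change was -0.24. Actg2, the enteric smooth muscle actin, was called, going from 178 and 155 CPM to 120 and 98.0 CPM, and it fell by 0.62 on the log2 scale (SE 0.07, adjusted p = 9.09e-06, edgeR). Acta2, the vascular smooth muscle actin, Vcl, which encodes the adhesion protein vinculin, and the matrix protein gene Thbs1 were chosen after their values were seen, and they fell by 0.58, 0.51 and 0.56 in C2C12 cells. Their log2 fold changes in primary myoblasts were 0.25, -0.35 and -0.23, none with an adjusted p under 0.05 (edgeR). In primary myoblasts 1 of the 22 fell and 2 rose by edgeR, compared with 1.04% and 3.95% of all genes, and DESeq2 passed 1. There 13 were lower in both pairs and 4 higher, compared with 29.2% and 32.6% of all genes. Tgfb1i1, an adhesion protein, was called lower at -0.61, Tpm2, a tropomyosin, was called higher at 0.68, and the median was -0.22. The difference of the effects, primary myoblasts minus C2C12 cells, was 0.82 for Acta2, 0.72 for Tpm2 and 0.90 for Fhl1, a LIM domain protein also chosen after its values were seen. By DESeq2 these passed (adjusted p = 0.00116, 0.000849 and 2.63e-06), and by edgeR they did not (adjusted p = 0.294, 0.284 and 0.0687).

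Of the SRF cofactors and upstream regulators, 2 of 14 fell in C2C12 cells and 0 were called by edgeR, with 3 at an unadjusted p under 0.05, and DESeq2 passed 0. Over all genes 4.12% fell and 1.57% were called. Both were chosen after their values were seen, the MRTF gene Mrtfb at -0.31 and the TCF gene Elk4 at -0.35. In primary myoblasts 1 of 16 was called, Abra, an actin-binding activator of SRF signalling in muscle, which rose by 1.29 (SE 0.20, adjusted p = 0.0011, edgeR) from 3.63 and 2.45 CPM to 9.04 and 5.85 CPM, beside 3.17% called over all genes. Rhoa and Rock2, the GTPase and its kinase, did not pass in either cell type, with C2C12 log2 fold changes of -0.04 and -0.07 and primary myoblast values of -0.0070 and -0.09. Of the 10 immediate early TCF-SRF targets, such as Egr1 and Junb, 0 passed with edgeR and 0 with DESeq2 in both cell types, and 0 in C2C12 cells and 2 in primary myoblasts had an unadjusted p under 0.05.

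Of the paralogs of the members, 1 of 14 had an adjusted p under 0.05 in C2C12 cells, Mylk2, the skeletal muscle kinase, at 0.54, chosen after its values were seen, compared with 2.64% of all genes that rose. In primary myoblasts 5 of 15 rose and 4 were called, compared with 3.95% and 2.87% of all genes. Lmod2, a leiomodin of striated muscle, rose by 0.95 from 89.1 and 24.6 CPM to 130 and 64.1 CPM, and Lmod3, its relative in skeletal muscle, rose by 0.71. Smtnl2 rose by 1.14 and Mylk4 by 0.68. In C2C12 cells Lmod2 was at 0 and 0.560 CPM in control and 0.144 and 0.898 CPM after Septin9 siRNA and Lmod3 at 1.54 CPM or less.

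Of the 5 striated muscle SRF targets, 3 rose in C2C12 cells and 4 in primary myoblasts by edgeR, compared with 2.64% and 3.95% of all genes, and DESeq2 passed 1 and 4. Actc1, the cardiac actin of developing muscle, rose by 0.72 in C2C12 cells and by 1.02 in primary myoblasts, and Tnnc1, a troponin C, by 0.65 and 0.81. Ckm, the muscle creatine kinase, rose by 1.14 in primary myoblasts. Of the myosin light chain phosphatase genes, 1 of 6 fell in C2C12 cells by edgeR, Ppp1r12a at -0.27, compared with 4.12% of all genes. DESeq2 passed 0 of them there. In primary myoblasts 0 of 5 passed with edgeR or DESeq2, with 1 at an unadjusted p under 0.05.

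**Figure D5:**
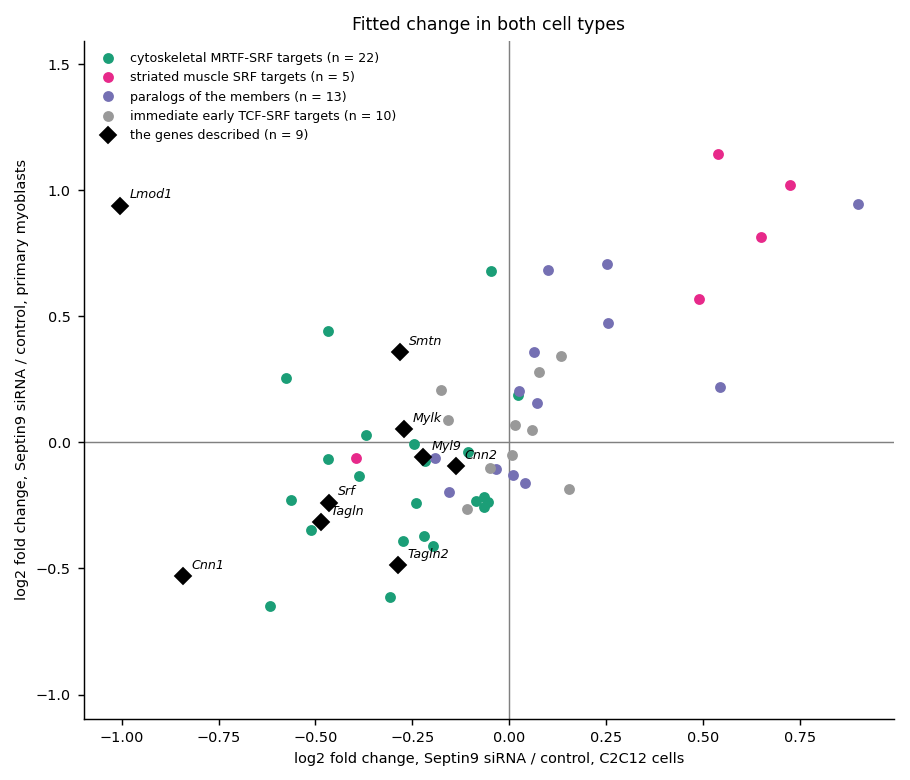
Fitted log2 fold change after Septin9 siRNA in C2C12 cells (horizontal) and in primary myoblasts (vertical), for 9 members (diamonds) and for the genes of 4 lists tested in both cell types (circles). Cytoskeletal targets lie mostly left of 0, Lmod1 and Smtn lie at the upper left with Lmod1 farther out, and Actc1, Ckm and Tnnc1 lie at the upper right.

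The genes whose values were most like those of Lmod1 over the 8 samples, after centring log2 CPM within each cell type, included Cnot4 (Pearson r = 0.984), Smtn (0.978), Plcl1 (0.977) and Rptoros (0.936), of 15192 other genes with at least 1 CPM on average. These are descriptions over samples that share a cell type and an siRNA. The centred values of Lmod1 largely follow the siRNA changes on which it was selected. Genes with the same pattern of change, Smtn among them, therefore rank high by construction. The other members had r between -0.36 and 0.25. Cnot4 changed far less than Lmod1, with fitted log2 fold changes of -0.06 and 0.06.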

How the data were processed

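Per the labels and the paper's methods, reads of polyA RNA were mapped to GRCm38.p6 with STAR 2.7.2 and counted per gene with featureCounts 2.0.1, and the authors deposited raw counts of all 8 samples. They also deposited, for each cell type, a normalized signal, in which batch effects were modelled with ComBat-Seq and counts were divided by DESeq2 size factors. All (100%) of its values were whole multiples of 1 count, so batch-corrected counts were recovered and used as an alternative. The 10 members and the gene lists were chosen with earlier results of these data known.

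Samples were grouped by their labels. Of the raw counts, 16 broken lines with parts of 5 genes were left out. Each cell type was fitted in R 4.3.3 with edgeR 4.0.16, using filterByExpr, TMM and the quasi-likelihood test, the replicate number being a block. Benjamini-Hochberg adjustment ran over 15814 genes (C2C12 cells) or 17117 genes (primary myoblasts). A gene was called at an adjusted p under 0.05 and a change of at least 1.5-fold. "Rose" and "fell" need the adjusted p alone. Samples were paired by the labels' replicate numbers, and deviations of same-numbered samples from their group means correlated at 0.678 in C2C12 cells and 0.820 in primary myoblasts. Differences between the cell types were tested as an interaction over all 8 samples with the block nested in cell type, and control groups in a fit of 4 groups without a block. Lmod1 was fitted there as planned, but its test is not reported. Pair ratios are log2 CPM with a prior count of 2. P-values of the siRNA effects and of the interaction set the change against how far the 2 pairs of a cell type disagree. The block takes up the difference between replicates there. With only 2 pairs, that spread is estimated largely from all genes together, so an SE follows the pairs of its own gene only in part. P-values between control groups use the spread between the 2 samples within groups, also shared over genes.

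Named genes were Septin9, the members, the genes called in each list (or the 3 with the highest CPM where fewer than 3 were called) and the 5 most like Lmod1, of which 1 is not reported here, and any other named gene is marked as picked with its values known. Alternatives were RLE or library size scaling, no filter or at least 10 counts, no block, DESeq2 1.42.0 on raw or batch-corrected counts, 1 fit of all 8 samples, no fold threshold, an adjusted p under 0.01, and each replicate left out. The fits were tested on simulated data. Figures were drawn with matplotlib 3.10.9.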

Additional observations from a re-analysis of the deposited data

Results flagged for a closer look

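The siRNA effects on Lmod1 and Smtn went down in both replicate pairs of C2C12 cells and up in both pairs of primary myoblasts. The log2 fold change in primary myoblasts minus that in C2C12 cells was 1.92 for Lmod1, a difference that was not tested because it chose the gene. For Smtn it was 0.63, with an adjusted p of 0.267 in edgeR's interaction test.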

How the results depend on the processing

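With Lmod1 left out, since it was given no test, the number of members called after Septin9 siRNA in C2C12 cells was 1. It was 5 without a fold threshold, 0 without the replicate block (where 0 of all genes were called and 372 had an unadjusted p under 0.05) and 1 to 2 with a replicate left out. Without replicate 1 Tagln joined Cnn1, and without replicate 2 Srf (adjusted p = 0.0419, edgeR) took the place of Cnn1. In primary myoblasts 0 members became 1 without a fold threshold and 0 to 1 with a replicate left out, Tagln at -0.72 without replicate 1. Between replicates of C2C12 cells, 3 members became 5 without a fold threshold. For the interaction, 0 became 1 with no filter and 0 to 2 with a replicate left out, Tagln joining Smtn without replicate 2 of primary myoblasts. Between control groups, again with Lmod1 left out, Cnn1 was the 1 member called, and the filter of at least 10 counts removed it. It was not called without replicate 1, and the replicate block kept it. Adjusted p-values of Smtn in C2C12 cells passed in 5 of 10 alternatives, and those of Tagln2 in primary myoblasts in 7 of 10.

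Genes called over all genes were 248 in C2C12 cells, but 99 with DESeq2, 83 in a fit of all 8 samples, 125 on batch-corrected counts, 151 at an adjusted p under 0.01, 1068 without a fold threshold, and 98 to 181 with a replicate left out. In primary myoblasts 543 became 260 with RLE, 206 with library size, 230 with DESeq2, 330 on batch-corrected counts, 328 at an adjusted p under 0.01, 854 without a fold threshold, 0 without the replicate block and 358 to 926 with a replicate left out. Interaction calls over all genes ranged from 0 to 844, and those between control groups from 3072 to 7463.

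With a replicate left out, the sign changed in primary myoblasts for Tagln (-0.72 to 0.083), Cnn1 (-0.59 to 0.050), Myl9 (-0.24 to 0.12) and Mylk (-0.074 to 0.21), without replicate 2 in each case. The cell type difference of Cnn2 was -0.012 with library size alone and -0.040 to 0.14 with a replicate left out, that of Tagln -0.22 to 0.58 and that of Myl9 -0.011 to 0.35. Between control groups the ranges were -0.51 to 0.94 for Tagln2, -0.39 to 2.47 for Mylk and -0.051 to 0.16 for Smtn. The cause was not tested. No member changed sign after Septin9 siRNA in C2C12 cells under these alternatives. A lone sample was taken to vary like the other groups.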
